A study of Mus musculus with 29 samples.

Results

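Retinoic acid signalling was followed through 9 genes, the 6 nuclear receptors Rara, Rarb, Rarg, Rxra, Rxrb and Rxrg and the 3 handling genes Rbp4, Crabp1 and Aldh1a1, out of 19938 genes measured in the caudate nucleus of HdhQ150 and wild-type mice. A gene entered when a probe set carried its symbol and no other, and the probe set with the highest mean stood for the gene; each of the 9 had 1 such probe set. Rarb and Rxrg were selected on measured values, because they were lower at 18 than at 12 months in wild-type mice. Every comparison with a wild-type group of 12 or 18 months is therefore a description for Rarb and Rxrg, with no test, and the other 7 genes are counted there. Vitamin A (retinol) travels in blood bound to Rbp4, is oxidised in cells to retinaldehyde and then to retinoic acid by enzymes such as Aldh1a1, and is bound in the cytosol by Crabp1. Retinoic acid acts through retinoic acid receptors (Rara, Rarb, Rarg), which bind DNA as dimers with retinoid X receptors (Rxra, Rxrb, Rxrg). In the rodent striatum Rarb and Rxrg are the characteristic members of the family, retinoid signalling takes part in the development of projection neurons there, and the dopamine D2 receptor gene Drd2 is a known retinoid target.

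HdhQ150 mice carry an expanded CAG repeat knocked into their own huntingtin gene, the change that causes Huntington's disease in people. There were 5, 6 and 4 HdhQ150 mice at 6, 12 and 18 months and 5, 5 and 4 wild-type littermates at the same ages, all on a mixed background given as 129/Ola x C57BL6/J, with 1 array per mouse. Each age was sampled from its own animals, dates of extraction or hybridisation are not in the labels, and all mice of 18 months were labelled female, so age cannot be told apart from anything else that differed between the age cohorts. Of the 29 mice, 23 were labelled female and 6 male. Values are log2 levels from RMA, a method that puts all arrays on a common scale, so a difference of 1 is a doubling; levels of different genes are not compared. Tests were made with limma across all 19938 genes with a term for labelled sex, two-sided, at an adjusted p (Benjamini-Hochberg) of 0.05. All 29 mice, including the wild-type mice that chose Rarb and Rxrg, entered the main fit and shared its sex term and spread. Htt, the targeted gene, was lower in HdhQ150 mice, with a HdhQ150 minus wild-type difference of -0.39, -0.42 and -0.32 at the successive ages (adjusted p = 0.00457, 0.000122 and 0.0523). The wild-type mouse WT-454 of 12 months correlated at 0.945 with its own group, against 0.975 to 0.978 for the other 4. The HdhQ150 mouse 1023 of 6 months, labelled female, had a Y-linked Eif2s3y level of 8.30 and an Xist level of 5.95, which go against its label. Calls of the 9 genes that change without these 2 mice are given with their values.

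Promoter windows are shown for the 3 genes with the widest age differences, Rarb, Rxrg and Crabp1, because retinoid receptors bind paired copies of a short hexamer. The windows come from RefSeq (GRCm38.p6), run from 250 bases before to 50 bases after an annotated start, and are written on the strand of the gene. The hexamer searched on both strands was AGGTCA, in which G was also taken for the first letter and T for the third, and the paired forms searched were direct repeats with 1, 2 or 5 bases between the copies. Capitals mark the direct repeat with 5 bases between its copies in Rarb and the single hexamers in Rxrg; a further hexamer upstream of the Rarb repeat is left in lower case, and Crabp1 holds none.
Rarb, chr14:16575427-16575726, minus strand: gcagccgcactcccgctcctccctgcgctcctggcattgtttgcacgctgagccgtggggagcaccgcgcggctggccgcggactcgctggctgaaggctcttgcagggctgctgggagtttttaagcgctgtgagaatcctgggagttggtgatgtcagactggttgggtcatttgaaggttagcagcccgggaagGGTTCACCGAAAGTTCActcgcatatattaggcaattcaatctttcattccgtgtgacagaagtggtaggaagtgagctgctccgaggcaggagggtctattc
Rxrg, chr1:167598112-167598411, plus strand: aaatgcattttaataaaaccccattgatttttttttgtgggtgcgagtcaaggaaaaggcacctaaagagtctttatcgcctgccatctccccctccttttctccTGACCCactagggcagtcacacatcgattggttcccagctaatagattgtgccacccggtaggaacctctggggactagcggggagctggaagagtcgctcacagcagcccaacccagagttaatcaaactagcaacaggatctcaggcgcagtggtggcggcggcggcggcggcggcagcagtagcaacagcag
Rxrg, second start, chr1:167618015-167618314, plus strand: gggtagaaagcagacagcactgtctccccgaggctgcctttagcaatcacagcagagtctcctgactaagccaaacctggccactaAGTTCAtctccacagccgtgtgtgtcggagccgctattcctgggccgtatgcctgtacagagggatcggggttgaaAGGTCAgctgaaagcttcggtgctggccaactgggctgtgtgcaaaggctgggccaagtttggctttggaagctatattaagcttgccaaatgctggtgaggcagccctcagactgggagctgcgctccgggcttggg
Crabp1, chr9:54764498-54764797, plus strand: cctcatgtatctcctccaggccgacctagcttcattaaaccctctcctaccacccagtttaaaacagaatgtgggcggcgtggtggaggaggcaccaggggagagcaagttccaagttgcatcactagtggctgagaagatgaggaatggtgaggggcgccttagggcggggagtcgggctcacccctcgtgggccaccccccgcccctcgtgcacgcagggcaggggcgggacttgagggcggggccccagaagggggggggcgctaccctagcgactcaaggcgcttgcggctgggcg
The Rarb repeat lies from 53 to 37 bases before the annotated start, and Rarb is a known target of retinoic acid itself. Of the 18 windows of the 9 genes, 1 held a direct repeat of the 3 kinds, and 9 held at least 1 hexamer. Among 32817 mouse promoter windows of the same length, 43.7% held a hexamer, 0.0975% the repeat with 5 bases between, 0.222% that with 1 base and 0.268% that with 2 bases. A match of letters is a description of the window and not evidence of binding.

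Rarb and Rxrg were highest at 12 months and lowest at 18 months in HdhQ150 mice, and both changes passed the test. In HdhQ150 mice the Rarb level was 9.49, 9.07, 9.31, 8.92 and 9.48 at 6 months. At 12 months its lowest, median and highest levels were 9.70, 9.79 and 9.88. At 18 months it was 9.0, 8.71, 9.23 and 8.72. Each of the 6 mice of 12 months thus lay above every HdhQ150 mouse of the other ages, while the ranges at 6 and 18 months overlapped. Group means were 9.25 ± 0.25, 9.78 ± 0.07 and 8.92 ± 0.25 (SD, n = 5, 6 and 4). Rarb rose by 0.54 at 12 against 6 months (SE 0.0939, adjusted p = 0.000151) and fell by 0.89 at 18 against 12 months, a 1.85-fold change (SE 0.103, adjusted p = 5.23e-06).

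Rxrg, the retinoid X receptor characteristic of the striatum, followed the same course over a wider range. Its HdhQ150 levels were 9.56, 9.28, 9.67, 8.93 and 9.62 at 6 months. At 12 months the lowest, median and highest were 9.76, 10.01 and 10.10. At 18 months they were 8.91, 8.73, 9.21 and 8.76. Again the 12-month mice did not overlap either other age. Rxrg rose by 0.58 at 12 against 6 months (SE 0.103, adjusted p = 0.000195). At 18 against 12 months it fell by 1.09, a 2.13-fold change (SE 0.112, adjusted p = 2.56e-06), and 99.9% of all genes had a smaller difference in either direction. Both comparisons share the 12-month mice.

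At 18 against 6 months Rxrg and Rarb were again lower in HdhQ150 mice. The 12-month mice are in neither group, but they enter the fit through the sex term and the spread. The difference was -0.51 for Rxrg (SE 0.114, adjusted p = 0.00796) and -0.35 for Rarb (SE 0.104, adjusted p = 0.0495). The Rarb call is at the edge of the threshold: without both mice 1023 and WT-454 its difference was -0.28 (adjusted p = 0.0948), and it passed in 11 of 39 alternative settings. In limma fits without any 1 of the HdhQ150 mice of 12 months the Rarb call was also lost (adjusted p = 0.0511 to 0.0579). Rxrg passed in 38 of 39, the exception being a fit of the 2 groups alone (-0.55, adjusted p = 0.0733). In that limma fit, which holds no wild-type mouse, Rarb differed by -0.38 (adjusted p = 0.146), so neither gene passed there.

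**Figure D1:**
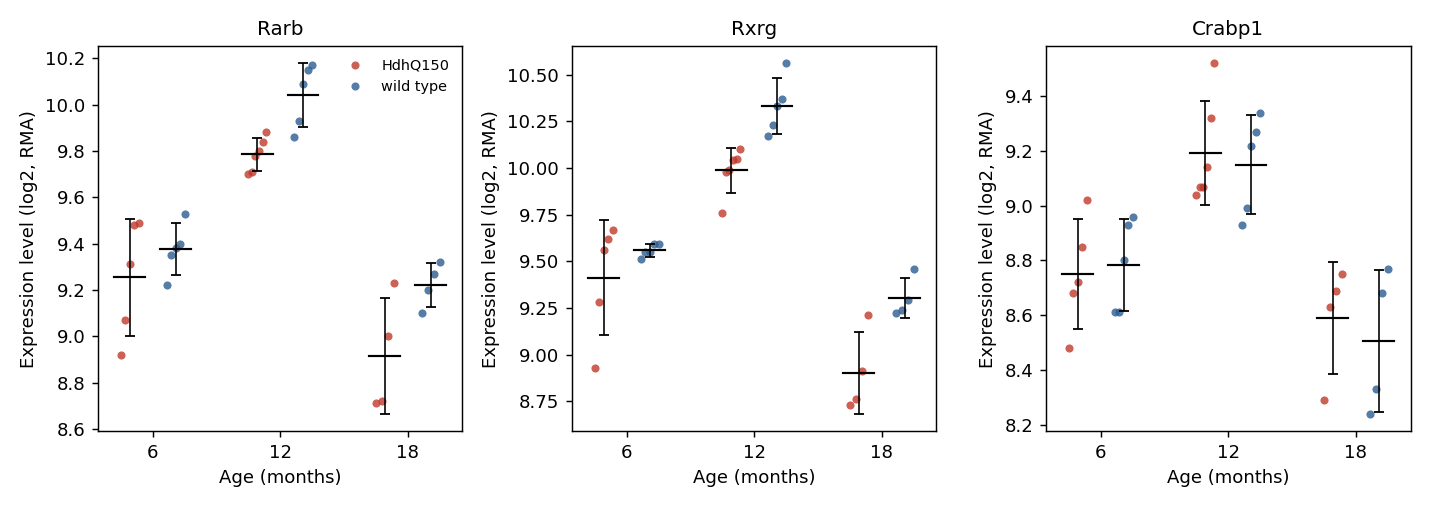
Levels (log2, RMA) of Rarb, Rxrg and Crabp1 in each mouse at 6, 12 and 18 months, HdhQ150 in red and wild type in blue, with the group mean (wide bar) and SD. All 3 genes were highest at 12 months in both genotypes, and the HdhQ150 means of Rarb and Rxrg lay under the wild-type means at each age.

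The wild-type values of these 2 genes, which chose them, had the same shape and are given as a description. Wild-type Rarb was 9.38, 9.53, 9.22, 9.40 and 9.35 at 6 months. At 12 months it was 9.86, 9.93, 10.15, 10.09 and 10.17. At 18 months it was 9.32, 9.10, 9.27 and 9.20. The wild-type groups of 12 and 18 months did not overlap, and their difference was -0.83, a 1.78-fold lower level at 18 months. Wild-type Rxrg was 9.59, 9.55, 9.51, 9.55 and 9.59 at 6 months. It was 10.23, 10.17, 10.56, 10.33 and 10.37 at 12 months. It was 9.46, 9.22, 9.29 and 9.24 at 18 months. The 18-month mice lay below all wild-type mice of 12 and of 6 months, with a difference of -1.03 from 12 months and of -0.26 from 6 months. The 12-month mice lay above all those of 6 months, with a difference of 0.77 for Rxrg and 0.65 for Rarb.

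Across the 6 groups, Rarb and Rxrg gave the same order of means: wild type 12 months, HdhQ150 12 months, wild type 6 months, HdhQ150 6 months, wild type 18 months and HdhQ150 18 months. For Rarb the means in that order were 10.04 ± 0.14, 9.78 ± 0.07, 9.38 ± 0.11, 9.25 ± 0.25, 9.23 ± 0.10 and 8.92 ± 0.25. For Rxrg they were 10.33 ± 0.15, 9.99 ± 0.12, 9.56 ± 0.03, 9.41 ± 0.31, 9.30 ± 0.11 and 8.90 ± 0.22. At 6 months, the one age at which both genes can be tested between genotypes, neither passed: Rarb differed by -0.14 (95% interval -0.34 to 0.07, adjusted p = 0.566) and Rxrg by -0.14 (-0.37 to 0.08, adjusted p = 0.584). At 12 months the HdhQ150 minus wild-type difference was -0.25 for Rarb and -0.34 for Rxrg, and at 18 months it was -0.31 and -0.40. In Rxrg the highest HdhQ150 mouse was below the lowest wild-type mouse at 12 months (10.10 and 10.17). The same held at 18 months (9.21 and 9.22), by a narrow margin. Both are descriptions without a test, since the wild-type mice of these ages chose Rxrg. The share of all genes whose genotypes separate in this way was not measured. In Rarb the genotypes overlapped at both ages.

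Crabp1, the cytosolic binding protein that holds retinoic acid, was also highest at 12 months, and it was not used in the choice of genes. HdhQ150 levels were 8.85, 8.68, 8.72, 8.48 and 9.02 at 6 months, and 8.69, 8.29, 8.75 and 8.63 at 18 months. At 12 months the lowest, median and highest were 9.04, 9.11 and 9.52, above every HdhQ150 mouse of the other ages. In wild type the 6-month mice had 8.61, 8.93, 8.61, 8.96 and 8.80, the 12-month mice 8.93, 8.99, 9.34, 9.27 and 9.22, and the 18-month mice 8.33, 8.24, 8.77 and 8.68. In wild type the 18-month mice lay below all those of 12 months, while those of 6 and 12 months overlapped. Crabp1 rose at 12 against 6 months by 0.45 in HdhQ150 (SE 0.111, adjusted p = 0.00387) and by 0.35 in wild type (SE 0.117, adjusted p = 0.0273). At 18 against 12 months it fell by 0.63 in HdhQ150 (1.55-fold, SE 0.122, adjusted p = 0.00137) and by 0.67 in wild type (1.59-fold, SE 0.124, adjusted p = 0.000799). The wild-type rise lost its call in 5 fits that left out 1 mouse, WT-488, WT-508, WT-1002, WT-1011 or WT-1020 (adjusted p = 0.0539 to 0.0669), and in labelled females alone (0.42, adjusted p = 0.0538). The genotype difference of Crabp1 did not pass at any age, with values of -0.05, 0.05 and 0.09 at 6, 12 and 18 months and 95% intervals of -0.29 to 0.19, -0.18 to 0.28 and -0.18 to 0.35.

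Among the other receptors, age differences were small and fewer passed. Rarg fell by 0.26 at 18 against 12 months in HdhQ150 mice (SE 0.0645, adjusted p = 0.0134), with levels of 6.93 to 7.13 at 18 months and 7.16 to 7.41 at 12 months that did not overlap. That call was lost without HdhQ150 mouse 412 (-0.22, adjusted p = 0.0949) and in a fit of the 2 groups alone (-0.28, adjusted p = 0.0594). In wild-type mice the same Rarg difference was -0.08 (95% interval -0.21 to 0.06, adjusted p = 0.698). Rara went the other way from Rarb at 12 months: in HdhQ150 mice it fell by 0.26 against 6 months (SE 0.0919, adjusted p = 0.043), with 6.82 ± 0.11 at 12 and 7.07 ± 0.13 at 6 months and overlapping mice. It lost its call in labelled females alone (-0.20, adjusted p = 0.155), with mouse 1023 entered as male (adjusted p = 0.051), over all probe sets (adjusted p = 0.0568) and on leaving out any 1 of HdhQ150 mice 451, 453, 462, 487, 1001, 1003, 1016 and 1017. The Rara mean of 6.82 in HdhQ150 mice of 12 months lay below the array medians of 6.91 to 7.05. In wild type the Rara difference at 12 against 6 months was -0.13 (adjusted p = 0.306), and -0.25 without both mice WT-454 and 1023 (adjusted p = 0.046). At 18 against 12 months in wild type Rara differed by 0.21 (adjusted p = 0.322), by 0.29 without both mice (adjusted p = 0.0435) and by 0.32 with arrays weighted by quality (adjusted p = 0.0166).

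Rxra and Rxrb, the broadly expressed retinoid X receptors, had no age difference that passed in either genotype. Over the 6 groups the mean Rxra level stayed between 7.60 and 7.78, and the mean Rxrb level between 8.33 and 8.49. At 18 against 12 months in HdhQ150 mice the difference was -0.01 for Rxra (95% interval -0.13 to 0.12) and 0.02 for Rxrb (-0.16 to 0.20), against -1.09 for Rxrg (-1.32 to -0.86). At 6 months Rxra was 7.68 to 7.87 in HdhQ150 and 7.57 to 7.63 in wild-type mice, groups that did not overlap. The difference of 0.19 (SE 0.0584, unadjusted p = 0.00342) missed the threshold over all genes (adjusted p = 0.173). It passed without both mice 1023 and WT-454 (0.21, adjusted p = 0.0448) and with arrays weighted by quality (0.20, adjusted p = 0.0194). In these settings 868 and 1330 of all 19938 genes passed at 6 months, against 5 in the main fit. At 12 and 18 months the Rxra genotype differences were -0.03 and -0.02.

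**Figure D2:**
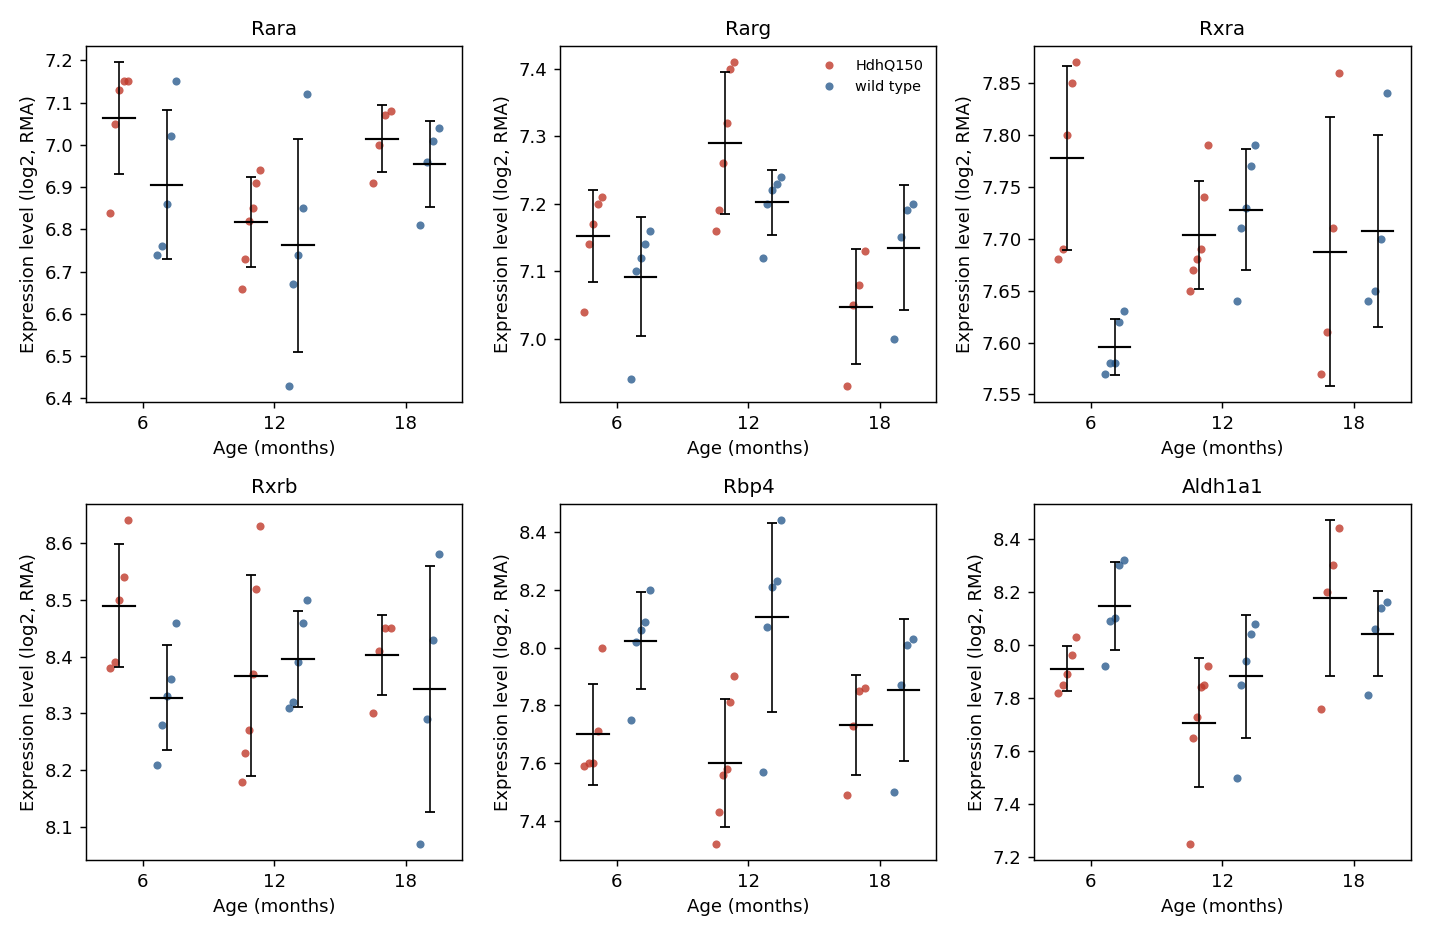
Levels (log2, RMA) of Rara, Rarg, Rxra, Rxrb, Rbp4 and Aldh1a1 in each mouse by age, HdhQ150 in red and wild type in blue, with the group mean (wide bar) and SD. The vertical axes span less than 1.5 log2 units, and most groups overlap; Rbp4 was lower in HdhQ150 mice at 12 months and Rxra did not overlap between genotypes at 6 months.

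Rbp4, which carries retinol, was the single tested gene of the 7 with a genotype difference that passed. At 12 months its lowest, median and highest HdhQ150 levels were 7.32, 7.57 and 7.90, against wild-type levels of 7.57, 8.21, 8.07, 8.23 and 8.44. The wild-type value of 7.57 belongs to mouse WT-454; the other 4 wild-type mice lay above all HdhQ150 mice. Rbp4 was lower in HdhQ150 by 0.48 (1.39-fold, SE 0.12, adjusted p = 0.0468). Over the 39 alternative settings the difference ran from -0.62 to -0.40 with adjusted p from 0.00236 to 0.175, and it passed in 15. HdhQ150 mice averaged 7.70 ± 0.17 and wild-type mice 8.02 ± 0.17 at 6 months, a difference of -0.36 (SE 0.126, adjusted p = 0.199). Without both mice WT-454 and 1023 it was -0.41 (adjusted p = 0.0414), in a fit where 868 of all genes passed, against 5. At 18 months the means were 7.73 ± 0.17 in HdhQ150 and 7.85 ± 0.25 in wild type, a difference of -0.12 (95% interval -0.40 to 0.16). Rbp4 had no age difference that passed over all 29 mice. In wild type at 18 against 12 months its difference was -0.29 (adjusted p = 0.278), and -0.38 without WT-454 and 1023 (adjusted p = 0.0451). Its change of genotype difference from 12 to 18 months was 0.36 (SE 0.183, unadjusted p = 0.0618). Choroid plexus, which makes the Rbp4 partner transthyretin, can enter a dissection of this region. The mean level of its 14 measured markers ran from 6.23 to 7.44 in HdhQ150 and from 6.18 to 7.64 in wild-type mice of 6 months, and from 6.39 to 6.60 in HdhQ150 and 6.24 to 6.85 in wild-type mice of 12 months. The part of these cells in the Rbp4 levels was not tested.

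Aldh1a1, a retinaldehyde dehydrogenase also found in dopamine neurons, was higher at 18 than at 12 months in HdhQ150 mice. HdhQ150 mice had levels of 8.20, 8.30, 7.76 and 8.44 at 18 months, against a lowest, median and highest of 7.25, 7.78 and 7.92 at 12 months. Of the 4 mice of 18 months, 3 lay above all 12-month mice and 1 within their range. Aldh1a1 rose by 0.43 at 18 against 12 months (1.35-fold, SE 0.125, adjusted p = 0.0352), and the call was lost without any 1 of HdhQ150 mice 462, 464, 383, 412 and 426 (0.31 to 0.42, adjusted p = 0.0559 to 0.187). It was also lost in a fit of the 2 groups alone (adjusted p = 0.0747), over all probe sets (adjusted p = 0.0734) and with centred arrays (adjusted p = 0.053). In wild type that difference was 0.13 (95% interval -0.13 to 0.39). Markers of meninges and fibroblasts, where retinaldehyde dehydrogenases are also made, moved the same way: 6 of 11 rose and none fell in HdhQ150 at 18 against 12 months, where 4.18% of all genes rose. Their mean level was 8.22 in mouse 383 and 7.25 to 7.32 in the other 3 mice of 18 months, and 6.91 to 7.04 at 12 months. Of 7 markers of midbrain dopamine neurons and 5 of endothelium 0 passed in limma, with 2 and 1 at an unadjusted p under 0.05. Over all genes 5.79% passed and 17.8% had such an unadjusted p. The median differences of the 2 marker lists were -0.10 and 0.12. The part of these cells in the result was not tested.

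Counted by comparison, Rarb and Rxrg passed in all 3 comparisons of ages in HdhQ150 mice, and Crabp1 passed in 2. At 18 against 12 months 5 of 9 passed in HdhQ150 mice, with Aldh1a1 higher and Rarb, Rxrg, Crabp1 and Rarg lower, where 5.79% of all genes passed. At 12 against 6 months 4 of 9 passed, with Rarb, Rxrg and Crabp1 higher and Rara lower, where 23.1% of all genes passed. At 18 against 6 months 2 of 9 passed, Rarb and Rxrg, both lower, where 4.65% of all genes passed. Each of these counts includes Rarb and Rxrg, which were picked for their fall from 12 to 18 months in wild-type mice. Of the 7 genes not picked, Aldh1a1, Crabp1 and Rarg passed at 18 against 12 months, and Crabp1 and Rara at 12 against 6 months. None of the 7 passed at 18 against 6 months. In wild-type mice, of the 7 genes not picked on them, Crabp1 alone passed at 12 against 6 months (25.7% of all genes passed) and at 18 against 12 months (5.87%). At 18 against 6 months limma called 0 of the 7, with 1 at an unadjusted p under 0.05 (Crabp1, -0.31), and 6.27% of all genes passed, with 22.6% at such an unadjusted p. The median difference of the 9 genes in HdhQ150 mice was -0.01 at 18 against 12 months and -0.08 at 12 against 6 months, against -0.02 and 0.04 over all genes.

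**Figure D3:**
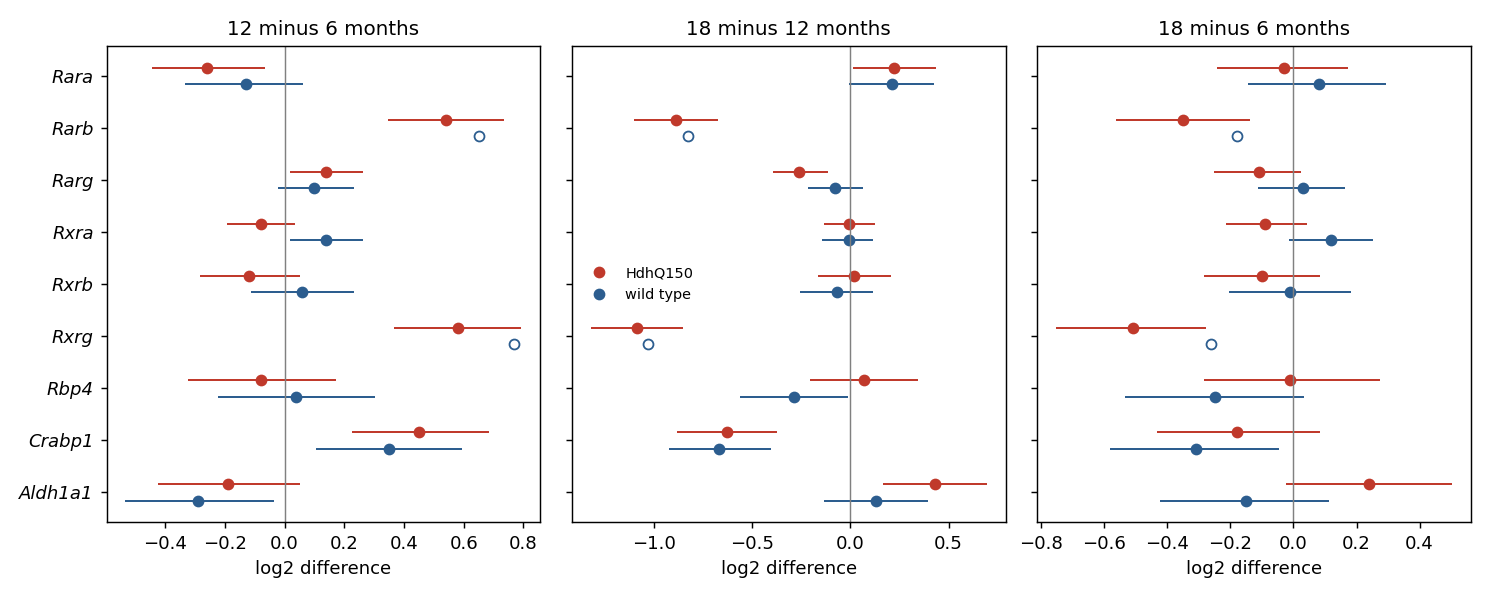
Differences between ages (log2) for the 9 genes, HdhQ150 in red above wild type in blue, with 95% intervals from limma; open circles without an interval mark the wild-type values of Rarb and Rxrg, which were used to choose these genes. Rarb, Rxrg and Crabp1 lie right of 0 at 12 minus 6 months and left of 0 at 18 minus 12 months in both genotypes.

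Between genotypes, limma called 0 of the 9 genes at 6 months, with 3 at an unadjusted p under 0.05 (Rxra, Rbp4 and Aldh1a1), where 0.0251% of all genes passed and 13.7% had an unadjusted p under 0.05. Over all genes 5 passed at that age, and 868 without mice WT-454 and 1023. At 12 months 1 of 7 passed, Rbp4, where 0.938% of all genes passed. At 18 months 0 of 7 passed and none had an unadjusted p under 0.05, where 0.135% of all genes passed and 5.81% had such an unadjusted p. Whether the genotype difference itself changed with age was tested for the same 7 genes, and 0 passed in each case. From 6 to 12 months 1 of them had an unadjusted p under 0.05 (Rxra, -0.22), and 0.00502% of all genes passed, with 6.51% at such an unadjusted p. From 12 to 18 months there was none, and 0% of all genes passed, with 2.07% at such an unadjusted p. From 6 to 18 months there were 2 (Rxra, -0.21, and Aldh1a1, 0.40), and 0% of all genes passed, with 8.17% at such an unadjusted p. For Rarb and Rxrg, given as a description, the genotype difference moved by -0.06 each from 12 to 18 months.

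Markers of the cells in the dissected tissue changed with age alongside these genes. Striatal projection neuron markers, the defining genes of the labelled tissue, had a mean level in HdhQ150 mice of 10.14, 10.45 and 9.75 at 6, 12 and 18 months, against 10.34, 10.75 and 10.17 in wild type. In HdhQ150 mice 7 of 12 measured markers rose and none fell at 12 against 6 months (11.9% of all genes rose), and 11 of 12 fell and none rose at 18 against 12 months (1.61% of all genes fell); Drd2 fell by 0.86 (SE 0.102, adjusted p = 6.78e-06) and the phosphodiesterase gene Pde10a by 0.76 (SE 0.0858, adjusted p = 5.23e-06). In wild type 9 rose at 12 against 6 months (13.1% of all genes) and 10 fell at 18 against 12 months (2.07%). Between genotypes 4 of 12 (Penk, Pde10a, Scn4b and Rasgrp2) were lower in HdhQ150 mice at 12 months (0.602% of all genes) and again at 18 months (0.0802%). Markers of excitatory neurons of the cortex, which lies next to the caudate nucleus, ran the other way with age. Their mean level per mouse in HdhQ150 was 8.41 to 9.07 at 6, 7.37 to 8.29 at 12 and 8.42 to 9.25 at 18 months, and in wild type 8.54 to 9.20, 7.76 to 8.51 and 8.50 to 9.29. Of 11 measured, 9 fell at 12 against 6 months (11.2% of all genes) and 8 rose at 18 against 12 months (4.18%) in HdhQ150; Slc17a7, the vesicular glutamate transporter of cortical neurons, differed by -2.44 and 2.54. The part of these cells in the age differences of Rarb, Rxrg and Crabp1 was not tested. At 18 against 6 months in HdhQ150 mice, 0 of the 11 cortical markers passed in limma. None of them had an unadjusted p under 0.05, and their mean levels overlapped. Over all genes 4.65% passed and 18.5% had such an unadjusted p. Of the 12 striatal markers 5 fell and none rose (2.37% of all genes fell). Of 11 markers of meninges and fibroblasts 1 rose and none fell (2.28% of all genes rose), with 4 at an unadjusted p under 0.05 in limma. The part of any of these cells in the differences between 18 and 6 months was not tested. In tissue RNA of this kind, fewer cells of a type and less RNA per cell cannot be told apart.

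**Figure D4:**
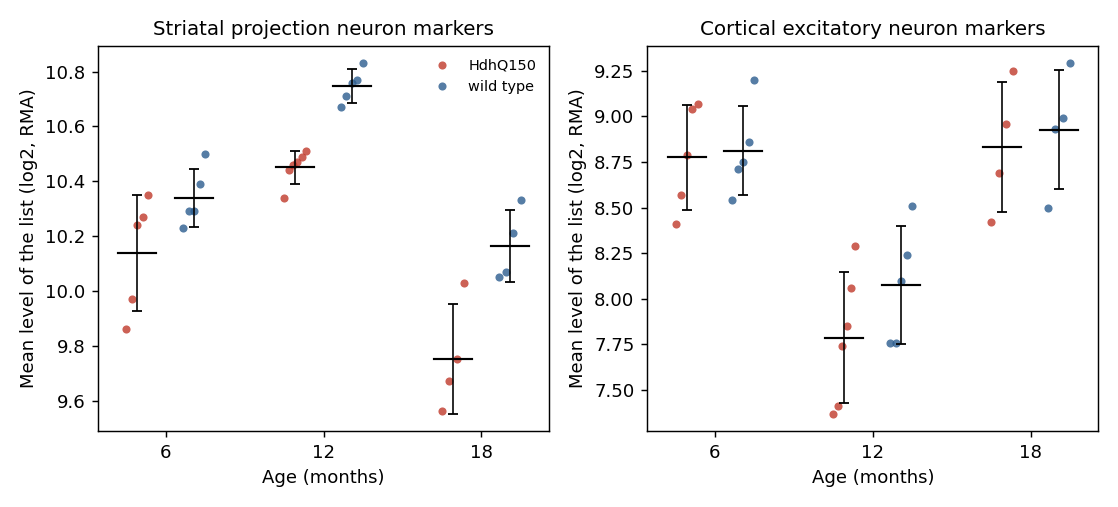
Mean level (log2, RMA) of 12 striatal projection neuron markers and 11 cortical excitatory neuron markers in each mouse by age, HdhQ150 in red and wild type in blue, with the group mean (wide bar) and SD. Striatal markers were highest and cortical markers lowest at 12 months in both genotypes.

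The genes whose levels over the 29 arrays were most like Rarb were Rxrg (r = 0.975), Drd2 (0.968), the forkhead factor Foxo1 (0.967), the actin-binding alpha-actinin Actn2 (0.965) and Gprin3 (0.962). For Rxrg they were Actn2 (0.983), Drd2 (0.980), Rarb (0.975), the striatum-enriched small GTPase Rasd2 (0.963) and Gprin3 (0.961). These correlations are descriptions over arrays that share the age and genotype differences above. With group means and labelled sex taken out, r with Rarb was 0.831 for Rxrg, 0.833 for Drd2, 0.890 for Foxo1, 0.803 for Actn2 and 0.817 for Gprin3. With Rxrg it was 0.873 for Actn2, 0.915 for Drd2, 0.778 for Rasd2 and 0.746 for Gprin3.

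Within groups, mice with more Rarb also had more Rxrg and more Crabp1. Since wild-type mice of 12 and 18 months chose Rarb and Rxrg, their correlations were tested over the other 20 mice, after group means and labelled sex were taken out. Rarb and Rxrg had r = 0.833 and rho = 0.726 there (permutation within groups, adjusted p over 36 pairs = 0.0432 and 0.0864), and r was 0.706 without the 2 mice farthest from the median of Rarb. Rarb and Crabp1 had r = 0.666 and rho = 0.627 (permutation, adjusted p = 0.0457 and 0.0864), with r = 0.579 without the 2 farthest mice. Both pairs thus passed by r and missed the threshold by rho. Rxrg and Crabp1 had r = 0.594 and missed the threshold (permutation, adjusted p = 0.156). Over all 29 mice, as a description, r was 0.831 for Rarb with Rxrg, 0.632 for Rarb with Crabp1 and 0.525 for Rxrg with Crabp1. HdhQ150 mouse 1017 of 6 months was lowest in both Rarb and Rxrg, with deviations of -0.35 and -0.49, and HdhQ150 mouse 415 of 18 months was highest in both, at 0.31 each. Rara and Rxra, which were not chosen on values, had r = 0.466 over the 29 mice (permutation, adjusted p = 0.0368) but rho = 0.472 with an adjusted p of 0.0957, and did not pass over the 20 mice (r = 0.392, adjusted p = 0.336). No other of the 36 pairs passed by either measure in either set of mice. Without mice WT-454 and 1023, r was 0.811 for Rarb with Rxrg and 0.571 for Rarb with Crabp1 over the remaining mice, and Rara with Rxra no longer passed. How much striatal tissue each dissection held can move all striatal genes of a mouse together; its part in these correlations was not tested.

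**Figure D5:**
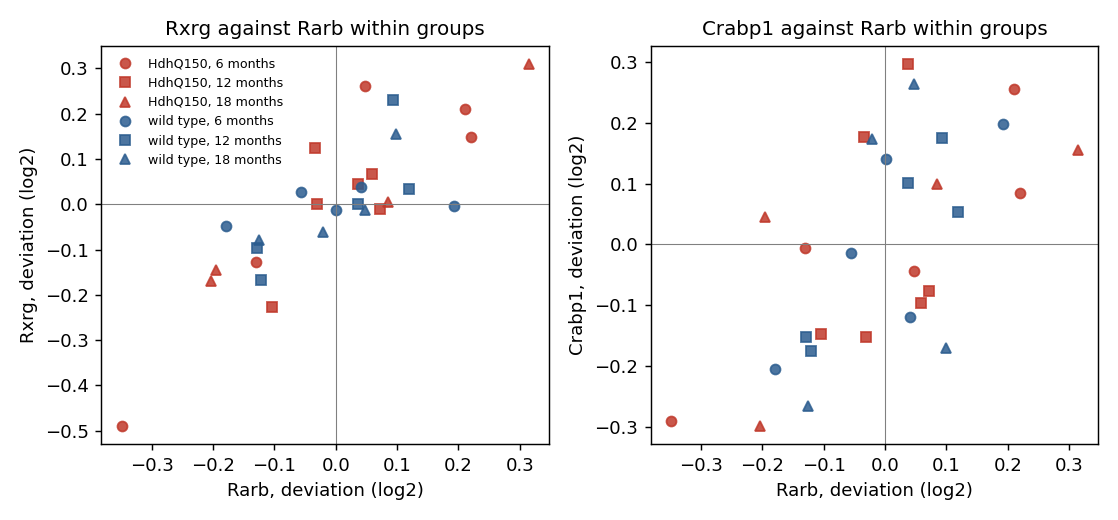
Deviation of each of the 29 mice from its group mean after the sex term (log2), for Rxrg against Rarb (left) and Crabp1 against Rarb (right), with genotype by colour and age by symbol. The points run from lower left to upper right in both, with r = 0.831 for Rxrg and 0.632 for Crabp1.

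The rest of the pathway was read from lists of 80 genes, of which 74 were measured, covering retinol uptake and storage, retinoic acid synthesis, binding and breakdown, other partner receptors of the retinoid X receptors, coregulators and known responsive genes. At 18 against 12 months in HdhQ150 mice 5 of the 74 passed (6.76%, against 5.79% of all genes). The responsive homeobox genes Meis1 and Meis2 fell by 0.41 (SE 0.105, adjusted p = 0.0156) and 0.49 (SE 0.105, adjusted p = 0.00324), Drd2 fell as given above, and the lipoprotein lipase gene Lpl fell by 0.70 (adjusted p = 0.00127). The zinc finger gene Zbtb16 rose by 0.91 (SE 0.174, adjusted p = 0.00119). Drd2, Meis1, Meis2 and Lpl had all risen at 12 against 6 months in these mice, by 0.52, 0.33, 0.30 and 0.50, and Zbtb16 had fallen by 0.53. Drd2, Meis1, Meis2 and Lpl were thus highest at 12 months and Zbtb16 lowest, and Drd2 is also among the striatal markers above.

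At 12 against 6 months 13 of 74 passed in HdhQ150 mice (17.6%, against 23.1% of all genes). Of 12 coregulators, 3 fell and none rose: the methyltransferase gene Carm1 (-0.28), the corepressor gene Tbl1xr1 (-0.45) and the deacetylase gene Hdac3 (-0.24). Fabp5, which can deliver retinoic acid to another nuclear receptor, rose by 0.30 and the endocytic receptor gene Lrp2 by 0.24. Nr1i3 rose by 0.24 (adjusted p = 0.0434) and the alcohol dehydrogenase gene Adh4 by 0.28 (adjusted p = 0.05 as rounded, at the edge of the threshold). Lrp2, Nr1i3 and Adh4 had low mean levels at 12 months, 6.32, 6.42 and 5.70, below the array medians of 6.91 to 7.05. The nuclear receptor Nr4a2 fell by 1.51 (SE 0.273, adjusted p = 0.000228). Of 19 synthesis genes, Adh4 alone passed. At 18 against 6 months 2 of 74 passed in HdhQ150 mice (2.7%, against 4.65% of all genes), Carm1 lower by 0.29 and the thyroid hormone receptor gene Thra higher by 0.22.

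In wild-type mice 13 of 74 passed at 12 against 6 months (17.6%), 4 at 18 against 12 months (5.41%) and 4 at 18 against 6 months (5.41%). These shares lay below those of all genes, 25.7%, 5.87% and 6.27% in the same order. At 12 against 6 months 9 of the 74 rose and 4 fell, the latter including Hdac3 (-0.38, adjusted p = 0.000119) and Tbl1xr1 (-0.72, adjusted p = 0.000431). Meis2 and Drd2 rose by 0.37 and 0.60 there, and fell at 18 against 12 months by 0.47 and 0.71. Zbtb16 rose by 0.74 at 18 against 12 months. Meis1 and Lpl passed in no wild-type comparison of ages. Nr4a1, a partner of retinoid X receptors, fell by 1.45 at 18 against 12 months (SE 0.249, adjusted p = 0.000379). Between genotypes limma called 0 of 74 at 6 months, with 14 at an unadjusted p under 0.05, which 13.7% of all genes had. It called 0 of 74 at 18 months, with 2 at such an unadjusted p and 5.81% of all genes. At 12 months 1 of 74 passed (1.35%, against 0.938% of all genes): Dhrs3, which turns retinaldehyde back to retinol, was lower in HdhQ150 mice, at 7.79 ± 0.08 against 7.99 ± 0.06 in wild type (-0.20, SE 0.0502, adjusted p = 0.0463).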

How the data were processed

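RNA of the caudate nucleus from 29 mice was measured on 1 array each, after TRIzol extraction and Affymetrix WT labelling, per the labels' protocols. Log2 levels were deposited, and the submitters' processing notes name RMA in Affymetrix Expression Console as the authors' method, without version or options. RMA normalizes quantiles, so a shift common to most genes is removed. Array medians ran from 6.91 to 7.05, no 2 arrays were identical. Precision is limited by the number of arrays.

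The table held 35556 probe sets, of which the platform annotation gave 21789 a single symbol, 1621 several and 12146 none; 21698 were updated by Entrez ID through a RefSeq gene table (GRCm38.p6). The probe set with the highest mean was kept for each of 19938 genes (999 had several). R 4.3.3 and limma 3.58.1 fitted 6 group means and labelled sex to all arrays, with moderated variances (trend), 22 residual degrees of freedom, 12 comparisons and Benjamini-Hochberg adjustment over all genes. Differences are therefore adjusted for sex and can depart slightly from differences of the printed means. Mice count as replicates by their mouse numbers. Within-group correlations used 100000 permutations within groups; those of Rarb and Rxrg were tested without the wild-type mice of 12 and 18 months, a choice made after the data were seen. The fit was tested on simulated data.

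The genes, the pathway and marker lists and the alternatives were chosen with earlier results of these data known. Besides the 9 genes, the text names Htt, the 5 genes most correlated with Rarb and with Rxrg, and list members that passed a comparison described. Alternatives left out the sex term, fitted only the groups compared, weighted arrays, tested all probe sets or the upper 50% of genes, used robust moderation, centred arrays, kept labelled females, entered mouse 1023 as male, left out mice WT-454 and 1023, and left out each mouse. The protein sequences are not used here.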

Additional observations from a re-analysis of the deposited data

Results flagged for a closer look

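In the 12-month HdhQ150 group, mouse 462 had the lowest Rxrg level, 9.76, against 9.98 in the nearest of the other 5 mice; the gap was 0.637 of the range of the group, above Dixon's 95% critical value of 0.625 for 6 mice. Of 54 groups examined (9 genes in 6 groups) this was the 1 that stood out, and chance gives about 1 in 20. Without that mouse the fall of Rxrg at 18 against 12 months in HdhQ150 mice still passed.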

How the results depend on the processing

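Of 92 tests of single genes, 14 passed the threshold, and 7 of these passed under all 39 alternatives (38 for Rara and Rarg, which lie in the lower 50% of genes): Rarb, Rxrg and Crabp1 in HdhQ150 mice at 12 against 6 and at 18 against 12 months, and Crabp1 in wild type at 18 against 12 months. A further 7 passed only under an alternative and 71 under none. No test that passed anywhere changed sign, while 21 of the 71 did under some setting. Between genotypes at 6 months the count of 0 genes became 1 with array weights (Rxra). It became 2 without mice WT-454 and 1023 (Rxra, and Rbp4 at -0.41, adjusted p = 0.0414). Over all genes 1330 and 868 passed in these settings, against 5. At 12 months the count of 1 (Rbp4) became 0 in a fit of the groups compared alone and over all probe sets. It was also 0 with centred arrays and with mouse 1023 as male. Over all genes these settings gave 103, 121, 151 and 184 in that order, against 187. On leaving out single mice the count of members ran from 0 to 1. In wild type at 12 against 6 months the count of 1 became 2 with the groups compared alone and without both mice. It became 0 in labelled females. Over all genes these settings gave 3514, 3408 and 2434 in that order, against 5121. On leaving out single mice the count of members ran from 0 to 2. In wild type at 18 against 12 months the count of 1 became 2 with array weights. It became 3 without both mice (Rara at 0.29 and Rbp4 at -0.38 added). Over all genes 2027 and 1514 passed there, against 1171. In HdhQ150 mice at 18 against 12 months the count of 5 became 3 with the groups compared alone. Over all genes 707 passed in that setting, against 1154. Aldh1a1 also lost its call over all probe sets and with centred arrays, where 897 and 1033 of all genes passed. On leaving out single mice the count of members ran from 3 to 5. At 18 against 6 months the count of 2 became 1 without the sex term, over all probe sets and with centred arrays. It was also 1 with mouse 1023 as male and without both mice, and 0 with the groups compared alone. Over all genes these settings gave 1049, 830, 827, 820, 1646 and 598 in that order, against 927. On leaving out single mice the count of members ran from 1 to 2. At 12 against 6 months in HdhQ150 mice the count of 4 became 5 with array weights (Rarg, 0.16, adjusted p = 0.0216). Over all genes 7098 passed in that setting, against 4599. Over all probe sets, in labelled females and with mouse 1023 as male Rara lost its call, leaving Rarb, Rxrg and Crabp1. There 4160, 3111 and 4784 of all genes passed, in that order. On leaving out single mice the count of members ran from 3 to 4. The cause of these changes was not tested. The number of all genes past the threshold also moved: 5 between genotypes at 6 months (2 to 1330 over the alternatives), 187 at 12 months (103 to 656), 27 at 18 months (1 to 43), 5121, 1171 and 1250 in wild type (2434 to 6521, 696 to 2027 and 248 to 2437) and 4599, 1154 and 927 in HdhQ150 (2702 to 7098, 582 to 2171 and 421 to 2489) at 12 against 6, 18 against 12 and 18 against 6 months. The 3 pairs with r past the threshold over all 29 mice were 3 without the sex term, 2 without both mice and 2 without the wild-type mice of 12 and 18 months, a setting chosen after seeing the data. Testing another probe set of each gene was not possible because each had 1. No paired analysis was possible because no mouse number occurs in more than 1 group. The smallest difference that 4 to 6 mice a group could detect was not measured.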
